A study of Rattus norvegicus with 12 samples.

Results

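Non-coding transcripts with a RefSeq record were followed in rat vein before and after grafting. They comprised every gene probe whose array annotation was a RefSeq accession starting with XR_ (model RNAs predicted from the genome without a coding frame) or NR_ (curated non-coding RNAs), with the H19 probe left out. They numbered 1728 of 24684 gene probes, 1702 of them XR_ and 26 NR_. Each had at least 3 spots on an array, 1724 of them exactly 3 and 4 of them 10.

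RNA from vein of male rats was hybridised to 12 Agilent arrays in 1 colour, with 3 arrays at each of 4 times. The day 0 arrays held vein from rats that had no operation, and the arrays of days 7, 14 and 28 held external jugular vein that many days after its surgical use as a carotid bypass. The labels name no strain, and they do not state whether every array stands for its own animal, so p-values measure how far these samples spread, and that spread may be technical. RNA came from the whole vessel, so fewer cells of a type and less RNA per cell cannot be told apart.

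RNAs without a coding frame fall into several classes that differ in how they are made and used. Structured RNAs such as the RNA subunit of ribonuclease P, which trims the 5′ end of precursor transfer RNA, and the telomerase RNA template act as parts of ribonucleoprotein enzymes. Transcribed pseudogenes are copies of coding genes that no longer give the protein, antisense and host transcripts lie across or around other genes, and an NR_ record of a coding gene is usually a splice form that is expected to be degraded or left untranslated. XR_ records are provisional, and many come from gene models that later annotations renamed or withdrew.

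Of the 1728 probes, 1464 exceeded background clearly on 3 or more of the 12 arrays and were tested (84.7%, against 85.3% of all gene probes and 88.9% of probes with a coding accession). The 264 others included 195 that were above background on 0 arrays. At the edge of the filter, the 15 probes above background on exactly 3 arrays had mean levels from -7.50 to -6.34 (median -6.79), and the 31 above background on 2 arrays had mean levels from -7.68 to -6.57 (median -6.97). Levels throughout are log2 processed signals from which the array's own 75th percentile was subtracted, so a level above 0 lies in the upper range of that array. A level depends on the probe as well as on the RNA, and no probe's level is set against another's. A gene symbol could be given to 19 NR_ records and to 0 XR_ records, and the others are called by accession.

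For 12 of the 19 symbols a RefSeq promoter window was held (250 bases before to 50 after the start of the gene, assembly GRCr8). The windows of 4 transcripts that were called lower on at least 1 graft day are shown to set their composition side by side, with motifs found on either strand in capitals. The motifs searched were the GC box, spelled GGGCGG, the CCAAT box, the TATA box, spelled TATAAA, and the CArG box, the element bound by serum response factor, whose match may overlap a TATA box.

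Atp2a2, chr12:39733269-39733568, plus strand: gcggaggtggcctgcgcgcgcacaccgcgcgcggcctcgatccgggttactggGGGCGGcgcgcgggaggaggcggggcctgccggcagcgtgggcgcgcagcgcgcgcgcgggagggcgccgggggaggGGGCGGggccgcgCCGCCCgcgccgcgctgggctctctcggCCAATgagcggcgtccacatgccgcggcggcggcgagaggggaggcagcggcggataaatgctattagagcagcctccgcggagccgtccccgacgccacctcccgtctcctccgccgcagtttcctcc
Chchd4l1, chrX:62690140-62690439, plus strand: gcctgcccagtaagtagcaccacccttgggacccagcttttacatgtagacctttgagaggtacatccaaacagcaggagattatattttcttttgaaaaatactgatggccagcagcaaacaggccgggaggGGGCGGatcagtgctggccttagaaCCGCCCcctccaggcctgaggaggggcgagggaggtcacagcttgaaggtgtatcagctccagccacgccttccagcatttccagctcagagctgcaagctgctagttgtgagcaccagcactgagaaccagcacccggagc
Abhd11-as1, chr12:27317406-27317705, plus strand: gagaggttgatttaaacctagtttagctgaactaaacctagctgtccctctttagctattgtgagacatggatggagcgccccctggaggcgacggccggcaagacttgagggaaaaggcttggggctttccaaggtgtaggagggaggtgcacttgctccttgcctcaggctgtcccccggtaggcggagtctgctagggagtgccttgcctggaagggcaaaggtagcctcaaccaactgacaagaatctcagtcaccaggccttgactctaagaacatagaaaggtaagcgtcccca
CB741658, chr20:3123508-3123807, plus strand: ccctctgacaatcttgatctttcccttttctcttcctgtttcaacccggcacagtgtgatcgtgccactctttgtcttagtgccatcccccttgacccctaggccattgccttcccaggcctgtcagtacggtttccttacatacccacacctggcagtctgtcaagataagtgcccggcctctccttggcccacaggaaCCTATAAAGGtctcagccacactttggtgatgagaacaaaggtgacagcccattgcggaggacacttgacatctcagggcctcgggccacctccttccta

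The Atp2a2 window held 3 GC boxes, 1 CCAAT and 52 CG dinucleotides at 79% G and C. The Chchd4l1 window held 2 GC boxes and 6 CG dinucleotides, and the Abhd11-as1 window held 0 of the 4 motifs and 7 CG dinucleotides, which is the median of all promoters. The CB741658 window held 1 TATAAA and 1 CArG box, which overlap. Of the windows not shown, those of Alg3 and Ngrn held 0 of the 4 motifs. That of RT1-T24-2 held 2 CCAAT matches and none of the other motifs. Among 33365 promoter windows of this length, 33.1% held GGGCGG, 37.5% CCAAT, 14.2% TATAAA and 1.63% a CArG box. A match describes these letters and shows no binding.

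Per array, 71.9% to 82.6% of gene spots exceeded background clearly and 0 were saturated; the 75th percentile ranged over intensities of 494 to 991. Over the 1464 tested members the correlation between arrays of a day was 0.929 to 0.982 at day 0, 0.96 to 0.996 at day 7, 0.99 to 0.996 at day 14 and 0.986 to 0.996 at day 28. The median SD between the arrays of a day was 0.57 log2 units at day 0, 0.338 at day 7, 0.206 at day 14 and 0.189 at day 28. Between spots of a probe on the same array it was 0.0654. The scanner software called 460 spots non-uniform on day 0 replicate 3 and 393 on day 7 replicate 3, and 2 to 11 on every other array. Arrays that share a scan time are called a slide here. Day 14 replicates 2 and 3 and day 28 replicates 1 and 2 were on slide 1, all day 7 arrays and day 14 replicate 1 on slide 2, and day 0 replicates 1 and 2 and day 28 replicate 3 on slide 3. Day 0 replicate 3 was scanned by itself and is counted as slide 4. Its array position was 4 and those of slide 3 were 1, 2 and 3. It may thus have lain on the same glass as slide 3, which scan time cannot show. Neither day 7 nor day 14 thus shared a slide with day 0, and for those comparisons slide and day can be told apart only through the other arrays.

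Cell type markers moved with the graft. All 6 measured smooth muscle genes fell on each graft day, and their median level was 6.43, 7.34 and 7.84 on the day 0 arrays, 3.94 to 4.08 at day 7, 2.58 to 3.60 at day 14 and 4.04 to 4.13 at day 28. Of 8 macrophage genes, 6, 7 and 6 rose at days 7, 14 and 28, and their median level was -0.13 to 2.07 at day 0, 4.04 to 5.23 at day 7, 5.05 to 5.27 at day 14 and 3.96 to 4.30 at day 28. Skeletal muscle genes lay between -1.67 and -1.60 at day 0, between -0.55 and 1.11 at day 7, at 3.02, -0.51 and 3.59 on the day 14 arrays, and between 2.74 and 6.36 at day 28, where 7 of 8 were higher than at day 0. Their part in the changes of the non-coding transcripts was not tested.

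Among NR_ transcripts with a symbol, Tnxa-ps1, Rpph1, Atp2a2, Chchd4l1 and Abhd11-as1 fell on each graft day. Tnxa-ps1, a transcribed pseudogene of the tenascin X gene, fell by 4.75 ± 0.31 at day 7, 4.70 ± 0.31 at day 14 and 2.98 ± 0.31 at day 28 on the log2 scale (limma, difference from day 0 ± SE, 3 arrays a day; adjusted p = 8.09e-06, 5.93e-06 and 0.000147). Its level was 4.62, 4.67 and 4.06 on the day 0 arrays, -0.23, -0.12 and -0.55 at day 7, -0.24, -0.25 and -0.27 at day 14, and 1.48, 0.78 and 2.14 at day 28. Every graft array lay below every day 0 array, and every day 28 array lay above those of days 7 and 14. The change from day 14 to day 28 was 1.72 (adjusted p = 0.0165) and that from day 7 to day 28 was 1.77 (adjusted p = 0.0245). Those later calls were lost without any 1 of the day 14 arrays or day 28 replicate 1 (adjusted p up to 0.0787), and without day 7 replicate 1 or 3 or day 28 replicate 1 or 3 (adjusted p up to 0.118). They were also lost with the normexp background correction, at 1.61 (adjusted p = 0.0553) and 1.63 (adjusted p = 0.0645). Under a fixed slide block Tnxa-ps1 remained called against day 0 on all 3 graft days, at -3.95, -3.89 and -2.50 (adjusted p = 0.0494, 0.0098 and 0.0127). No probe of tenascin X itself was identified among the annotated probes, and signal from that gene and from its pseudogene copy cannot be told apart here.

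Rpph1, the RNA subunit of ribonuclease P, fell on each graft day. Its level was 4.32, 5.25 and 4.19 at day 0, 2.66, 2.26 and 2.71 at day 7, 2.70, 3.20 and 2.55 at day 14, and 2.02, 1.96 and 2.18 at day 28. The graft arrays lay below the day 0 arrays with no overlap, and the change was -2.04, -1.77 and -2.53 at days 7, 14 and 28 (SE 0.29 each, limma adjusted p = 0.000586, 0.00103 and 0.000242). A fixed slide block gave changes of -1.88, -1.73 and -2.61, of which that of day 28 stayed called (adjusted p = 0.379, 0.133 and 0.0236). The coding gene Parp2, which lies next to Rpph1 in the RefSeq annotation and encodes a DNA repair enzyme, had changes of 0.02, 0.13 and -0.29 and passed no test.

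Of 11 listed protein subunits of ribonuclease P and the related RNase MRP, 10 were tested, and 1, 3 and 1 were called at days 7, 14 and 28 (all probes 33.1%, 37.5% and 33.9%). Rpp38 fell at day 7 (-0.75, adjusted p = 0.0431) and day 14 (-0.86, adjusted p = 0.0215), and Rpp21 fell at day 14 (-0.59, adjusted p = 0.00972) and day 28 (-0.55, adjusted p = 0.0163). Rpp14 rose at day 14 (0.47, adjusted p = 0.0468). The list's median change was -0.12, -0.12 and -0.07 at days 7, 14 and 28, beside -0.03, 0.02 and 0.01 over all probes.

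Terc, the template RNA of telomerase, was dim and above background on 7 of 12 arrays. Its level was -5.65, -4.89 and -6.22 at day 0, -6.21, -6.03 and -6.79 at day 7, -5.79, -5.43 and -5.67 at day 14, and -6.58, -6.85 and -6.40 at day 28. Only day 28 passed the test, with a change of -1.02 ± 0.33 (limma adjusted p = 0.0346), and on that day 1 of the 3 arrays was above background. The call was lost when any 1 of 8 arrays was left out, every array but day 0 replicate 3, day 7 replicates 2 and 3, and day 14 replicate 2 (change -1.12 to -0.67, adjusted p = 0.0501 to 0.11), and with normexp (-0.45, adjusted p = 0.786). Among the proteins that bind telomerase RNA and the box H/ACA or C/D guide RNAs, 7 of 10 were tested, without Dkc1, Nhp2 and Gar1. Of the 7, 0, 1 and 1 rose at days 7, 14 and 28 (17.7%, 20.1% and 17.4% of all probes). On each of these days 2 fell (15.4%, 17.4% and 16.5% of all probes). Fbl, Nop58, Snu13 and Nolc1 passed no test against day 0. Nop10 fell on each graft day (-1.28, -0.89 and -1.12, adjusted p = 0.00232, 0.0128 and 0.00514), as did Naf1, an assembly factor of H/ACA particles (-3.57, -3.33 and -4.50, adjusted p = 0.0257, 0.019 and 0.00577). Nop56 rose at day 14 (1.13, adjusted p = 0.00969) and day 28 (0.84, adjusted p = 0.0409).

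Gas5, a host transcript of small nucleolar RNAs that is known as a binding partner of the glucocorticoid receptor, passed no test. Its level was 2.59, 2.12 and 1.13 at day 0, 1.85, 1.78 and 1.83 at day 7, 1.61, 1.87 and 1.67 at day 14, and 1.73, 1.69 and 1.78 at day 28. All graft arrays lay within the range of the day 0 arrays. Its changes of -0.12, -0.23 and -0.21 had an SE of 0.30 each (limma adjusted p = 0.793, 0.578 and 0.615).

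The non-coding record of Atp2a2, the gene of the calcium pump SERCA2 that refills the sarcoplasmic reticulum of muscle, fell on each graft day. Its level was 2.79, 3.29 and 2.99 at day 0, 1.05, 1.41 and -0.15 at day 7, 0.98, 0.53 and 1.17 at day 14, and 1.83, 1.87 and 1.77 at day 28. Every graft array lay below every day 0 array, and day 7 replicate 3 was the lowest of all. The change was -2.26, -2.14 and -1.20 at days 7, 14 and 28 (SE 0.35 each, limma adjusted p = 0.00102, 0.00109 and 0.0247). The day 28 call was lost without day 0 replicate 2 or any 1 of the day 28 arrays (adjusted p up to 0.0732). The probe of the coding record NM_001110139 changed by nearly the same amount, -2.15, -2.11 and -1.18 (adjusted p = 0.00118, 0.00106 and 0.0249), while that of NM_001110823 had changes of -0.14, -0.16 and -0.02 and passed no test. The probes of this gene thus moved unequally, and which splice forms each one binds cannot be read from the files.

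Oprm1, the gene of the mu opioid receptor, was the symbol-bearing record that rose. Its NR_ probe lay at -3.87, -3.48 and -6.42 at day 0, -0.73, -1.61 and -1.27 at day 7, -2.95, -2.17 and -3.44 at day 14, and -2.43, -2.59 and -2.11 at day 28. The day 7 arrays were the highest, and day 0 replicate 3 was far below the other day 0 arrays. The change was 3.39 ± 0.66 at day 7, 1.74 ± 0.66 at day 14 and 2.21 ± 0.66 at day 28 (limma adjusted p = 0.0033, 0.0602 and 0.0259), and the day 28 call was lost without any 1 of the day 28 arrays (adjusted p up to 0.0744) and with normexp (0.91, adjusted p = 0.128). The probe of NM_001038601 gave 3.52, 1.72 and 2.32 (adjusted p = 0.00228, 0.057 and 0.0186). A further probe, of NM_013071, had changes of 0.63, 0.27 and 0.72 with an SE of 0.74 and passed no test, and 3 probes of other coding records were not tested.

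Ngrn and Alg3 showed the same likeness between non-coding and coding records at smaller size. The NR_ probe of Ngrn, known in human cells as a mitochondrial ribosome assembly factor, had changes of -0.59, -1.03 and -0.43 and passed at day 14 (adjusted p = 0.00793), and the NM_ probe had changes of -0.70, -1.11 and -0.53 and passed at day 14 as well (adjusted p = 0.00614). The NR_ probe of Alg3, a mannosyltransferase of the endoplasmic reticulum, passed at day 28 with -0.70 (adjusted p = 0.032), and the NM_ probe changed by -0.85 (adjusted p = 0.0222). The call of the NR_ probe of Alg3 was lost without day 0 replicate 2 or 3, day 14 replicate 1, or day 28 replicate 1 or 2 (adjusted p up to 0.104), and with normexp (-0.65, adjusted p = 0.102). Dnlz, which encodes a mitochondrial chaperone partner, had changes of 0.01, 0.04 and 0.05 with an SE of 0.21 by its NR_ probe and of 0.02, 0.06 and 0.06 by its NM_ probe. Since paired probes may bind shared sequence, such pairs are not separate measurements of separate RNAs.

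**Figure D1:**
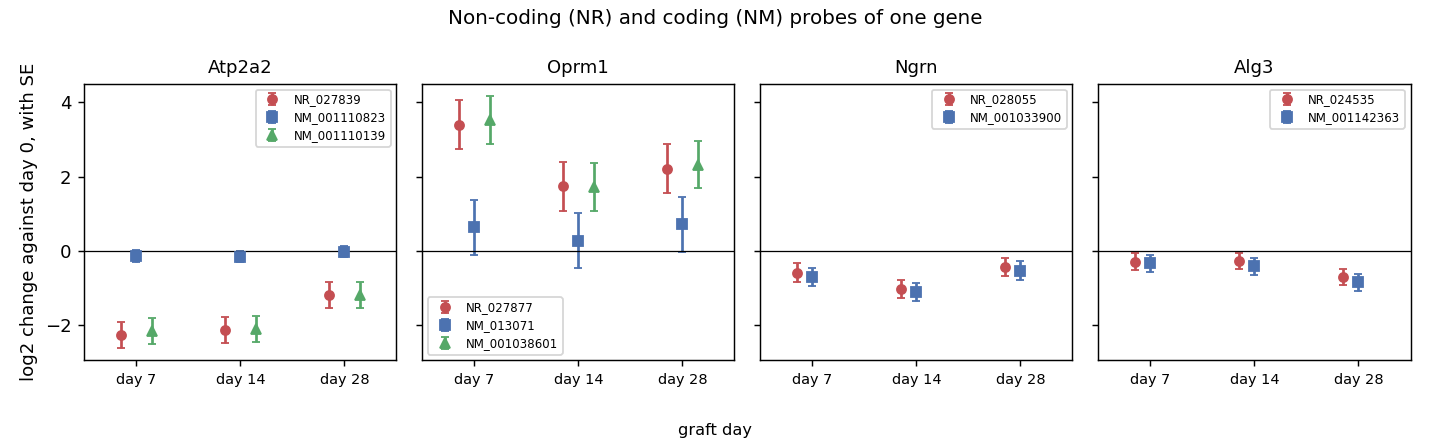
Log2 change against day 0 with its SE (vertical axis, limma, 3 arrays a day) at days 7, 14 and 28 (horizontal axis) for the tested non-coding (NR) and coding (NM) probes of 4 genes. In Atp2a2 and Oprm1 the NR probe lies beside one NM probe and apart from the other, which stays near 0 for Atp2a2.

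Chchd4l1 and Abhd11-as1 fell on each graft day. Chchd4l1, annotated as a non-coding relative of the mitochondrial import gene Chchd4, lay at -2.12, -1.45 and -2.06 at day 0, -3.41, -3.92 and -2.47 at day 7, -3.50, -3.01 and -3.74 at day 14, and -4.05, -3.98 and -3.12 at day 28. All graft arrays were below all day 0 arrays, and the change was -1.39, -1.54 and -1.84 (SE 0.39 each, limma adjusted p = 0.0215, 0.0116 and 0.0059). The day 7 call was lost without day 0 replicate 2 or day 7 replicate 1 or 2 (adjusted p up to 0.0789). All 3 calls were lost with normexp, at -0.18, -1.04 and -1.28 (adjusted p = 0.794, 0.181 and 0.11). Chchd4 itself fell at day 7 (-0.92, adjusted p = 0.018) and day 14 (-1.10, adjusted p = 0.00658), and had a change of -0.68 at day 28 (adjusted p = 0.0589).

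Abhd11-as1, which lies next to the hydrolase gene Abhd11 (not tested) in the RefSeq annotation, lay at -4.23, -4.18 and -4.41 at day 0, -5.52, -5.75 and -5.07 at day 7, -5.53, -5.11 and -5.97 at day 14, and -5.20, -4.77 and -5.40 at day 28. The day 0 arrays were the 3 highest, and the change was -1.17, -1.27 and -0.85 (SE 0.27 each, limma adjusted p = 0.00738, 0.00425 and 0.0323). With the normexp background correction the day 7 change was 0.53, the opposite direction, and those of days 14 and 28 were -0.41 and -0.49, and none of the 3 passed (adjusted p = 0.541, 0.834 and 0.735). The day 28 call was lost without day 0 replicate 1 or 2, day 14 replicate 1, or day 28 replicate 1 or 3 (adjusted p up to 0.107).

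A pair of transcripts from chromosome 20, RT1-T24-2 and CB741658, fell at day 28 and passed no other test. RT1-T24-2 lay at -2.28, -1.26 and -3.61 at day 0 and at -4.32, -4.38 and -3.86 at day 28, a change of -1.81 ± 0.51 (limma adjusted p = 0.021). CB741658, whose promoter window held the TATAAA and the CArG box, lay at -7.01, -4.79 and -5.27 at day 0 and at -7.34, -7.63 and -7.21 at day 28, a change of -1.70 ± 0.48 (adjusted p = 0.021), and was above background on 1 of the 3 day 28 arrays. It was above background on 4 arrays in all, 2 of them at day 0, and passed the filter only with those of day 0. Neither had arrays that overlapped between those days. The first call was lost without day 0 replicate 2 or day 28 replicate 1 or 2 (adjusted p up to 0.0673), and the second without day 0 replicate 2 or 3 or day 28 replicate 1 or 2 (adjusted p up to 0.0685). With normexp neither passed, at -1.18 (adjusted p = 0.239) and -0.67 (adjusted p = 0.628). The pseudogenes Gapdh-ps1, Hmgb1-ps2 and Dzip1-ps1 and the records AA926063 and 2810025M15Rikl passed no test in any comparison, and E230034O05Rik, above background on 2 arrays, was not tested. Hmgb1, the parent gene of Hmgb1-ps2, fell at day 7 (-0.75, adjusted p = 0.00888) and day 14 (-0.59, adjusted p = 0.0249), while the pseudogene had changes of -0.17 and 0.01 with an SE of 0.30.

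**Figure D2:**
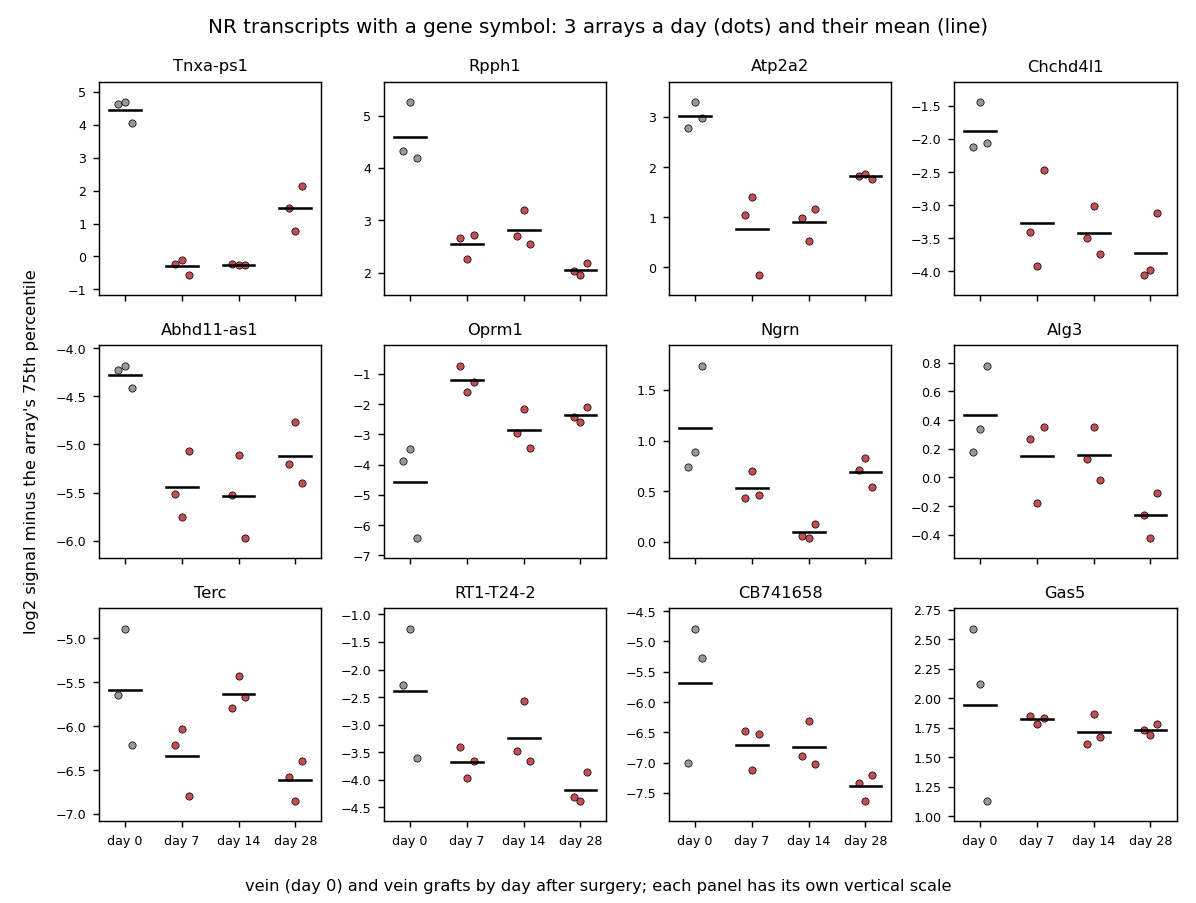
Level of 12 NR transcripts with a gene symbol (vertical axis, log2 signal minus the array's 75th percentile, scaled per panel) on each array (dots, grey for day 0, red for grafts) by day (horizontal axis), with the mean of the 3 arrays as a line. Tnxa-ps1 lies near 4.45 at day 0, below 0 at days 7 and 14 and at 1.47 at day 28, and Gas5 keeps its graft arrays within the range of day 0.

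The listed genes that make or destroy non-coding RNA were called at the shares below, beside 33.1%, 37.5% and 33.9% of all probes at days 7, 14 and 28. Of 10 listed microRNA processing and effector genes 4 were tested, and 1 changed in any comparison with day 0, Drosha, the nuclear microRNA processing enzyme (-0.71 at day 7, adjusted p = 0.0485). Of 13 RNA exosome and decay genes 7 were tested, and 1, 2 and 1 were called. Exosc7 fell at day 7 (-0.61, adjusted p = 0.0347) and day 14 (-0.65, adjusted p = 0.0231), Exosc5 fell at day 14 (-0.73, adjusted p = 0.0196) and Exosc3 fell at day 28 (-3.77, adjusted p = 0.0171), while 0 rose.

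Against unoperated vein, 350 of the 1464 tested non-coding probes were called at day 7 (23.9%, against 33.1% of all 21063 probes), 425 at day 14 (29% against 37.5%) and 355 at day 28 (24.2% against 33.9%). The F test over all days called 440 (30.1%, against 40.5% of all probes). At day 7, 224 rose and 126 fell (17.7% and 15.4% of all probes), at day 14, 282 rose and 143 fell (20.1% and 17.4% of all), and at day 28, 190 rose and 165 fell (17.4% and 16.5% of all). Arrays of the graft day and of day 0 did not overlap in 427 members at day 7 (29.2%, against 38.8% of all probes), 624 at day 14 (42.6% against 50.3%) and 533 at day 28 (36.4% against 47.7%). The median change was 0.14 at day 7, 0.25 at day 14 and 0.08 at day 28, beside -0.03, 0.02 and 0.01 over all probes. These medians rest in part on day 0 replicate 3. Without it they were -0.01, 0.06 and -0.08 for the members, beside -0.11, -0.09 and -0.10 over all probes. The day 28 calls were then 162 higher and 196 lower (24.5% called, against 32.8% of all probes). The 3 comparisons share the day 0 arrays.

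By class, the F test called 30% of XR_ probes, 36% of NR_ probes, 42.7% of probes with a coding accession and 29.7% of probes for ultraconserved regions. It called 37.6% of probes whose identifier starts with MR, 41% of those with other identifiers and 40.5% of all probes. Of the 25 tested NR_ probes 8 were called at day 7 (32%, against 33.1% of all probes), 9 at day 14 (36% against 37.5%) and 14 at day 28 (56% against 33.9%). At day 28 they were 4 higher and 10 lower (17.4% and 16.5% of all probes). Of 1439 XR_ probes 342 (23.8%), 416 (28.9%) and 341 (23.7%) were called on those days. No test of the difference between classes was made, since members of a class share arrays and are not replicates.

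Between graft days far fewer passed. Day 14 against day 7 called 42 members (2.87%, against 3.26% of all probes), 20 higher and 22 lower (1.38% and 1.88% of all). Day 28 against day 14 called 41 (2.8% against 4.48%), 11 higher and 30 lower (2.4% and 2.08% of all). Day 28 against day 7 called 24 (1.64% against 1.78%), 4 higher and 20 lower (0.75% and 1.03% of all). Arrays of those days did not overlap in 465 members for day 14 against day 7 (31.8%, against 32.7% of all probes), 681 for day 28 against day 14 (46.5% against 50.4%) and 458 for day 28 against day 7 (31.3% against 35.3%). The median change was 0.09, -0.21 and -0.08 in those comparisons, beside 0.05, -0.08 and 0.01 over all probes. The split of higher to lower moved by over 10 percentage points with other scalings: in the authors' deposited table it was 27 to 18 for day 14 against day 7 and 5 to 13 for day 28 against day 7, with quantile normalization 6 to 16 for day 28 against day 7, and with normexp 4 to 1 and 1 to 8 for day 14 against day 7 and day 28 against day 14.

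**Figure D3:**
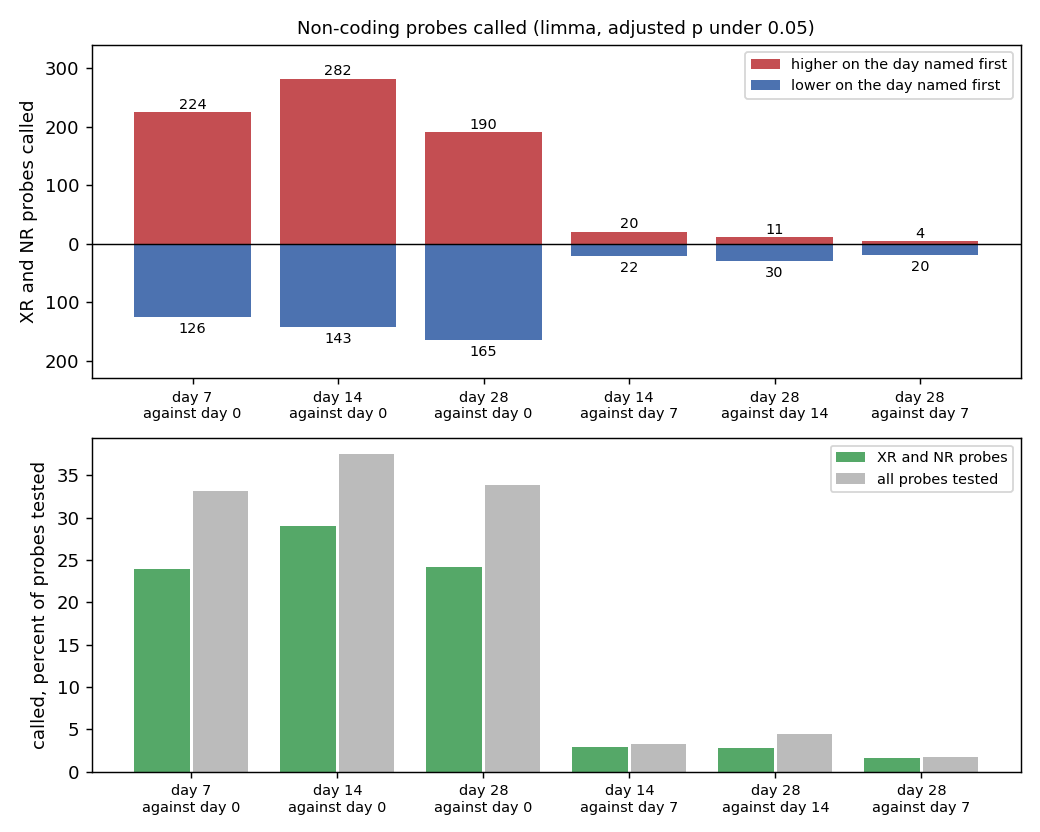
Upper panel: number of XR and NR probes called higher (up) or lower (down) on the day named first in each of 6 comparisons. Lower panel: the called share in percent for XR and NR probes beside all probes tested, which is lower for the XR and NR probes in each comparison, such as 23.9% against 33.1% at day 7.

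These counts were far smaller with slide as a fixed block. At days 7, 14 and 28 against day 0 it called 3, 55 and 57 members (0.205%, 3.76% and 3.89%, against 0.261%, 4.91% and 6.47% of all probes). Between the graft days, in the order above, it called 2, 11 and 0 (0.133%, 0.589% and 0% of all probes). By the F test 45 were called (3.07%, against 3.85% of all probes). That fit also gives day 0 replicate 3 no weight, since it is alone on its slide. Leaving out that array without a block gave 396, 409 and 358 calls against day 0 (33.8%, 35.3% and 32.8% of all probes). The cause of the fewer calls was not tested. The direction was the same in the blocked fit for 343 of the 350 calls at day 7, 424 of 425 at day 14 and 355 of 355 at day 28, with a median size of 1.02, 1.30 and 1.11 against 1.35, 1.46 and 1.31 without the block. Since these members were selected on the same arrays, this agreement in direction is no independent support. For day 28 against day 0, day 14 against day 7 and day 28 against day 14 the blocked change is the difference within the slide that held both days, slide 3 (1 array against 2), slide 2 (1 against 3) and slide 1 (2 against 2). With slide as a random block (correlation 0.169) 280, 393 and 339 were called against day 0 (26%, 34.5% and 32% of all probes).

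Over the 3 graft days, 126 members were higher than day 0 each time (8.61%, against 11.4% of all probes), with median changes of 1.81, 1.95 and 1.47. Another 70 were lower each time (4.78% against 9.18%), with medians of -1.46, -1.52 and -1.40. Called higher at day 14 and not at the other days were 85 (5.81%, against 4.4% of all probes), and 865 were called on no graft day (59.1%, against 49% of all probes). XR_008674 was the 1 member called in opposite directions on different days, higher at day 7 and lower at day 14 (0.0683%, against 0.057% of all probes with that pattern). Members above background on all graft arrays and on 0 of the day 0 arrays numbered 6 of 1728 (0.347%, against 144 of all 24684 probes, 0.583%). Members with the opposite pattern numbered 0, against 24 of all probes (0.0972%).

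Among the largest rises on the graft days were those of XR_009482, XR_007646, XR_009483, XR_008266 and XR_009485. XR_009482 lay at -1.84, -4.72 and -6.78 at day 0, 1.14, 0.58 and 1.43 at day 7, 0.71, 1.07 and 0.64 at day 14, and -0.03, -0.73 and 0.55 at day 28. It was above background on 2 of the 3 day 0 arrays and rose by 5.50, 5.26 and 4.38 (SE 0.95 each, limma adjusted p = 0.00173, 0.00181 and 0.00617). XR_007646 lay at -2.13, -4.54 and -4.97 at day 0 and between -0.06 and 2.35 on the graft arrays, and rose by 5.33, 5.66 and 4.22 (SE 0.67 each, adjusted p = 0.000275, 0.000146 and 0.00129). Day 0 replicate 1 was the highest of the day 0 arrays for both, and for XR_009483, XR_008266 and XR_009485 as well. It also had the highest day 0 medians of macrophage, T and NK cell, B cell, fibroblast, endothelial, adipocyte and Schwann cell genes. The macrophage median was 2.07, -0.13 and 0.66 on the day 0 arrays, while XR_009482 and XR_007646 were lower on replicate 3 than on replicate 2. The T and NK cell median was -1.37, -2.54 and -3.10. A cell source of these transcripts was not tested.

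XR_009483 lay at -0.60, -3.31 and -5.63 at day 0 and between 0.80 and 2.72 on the graft arrays, and rose by 4.78, 5.86 and 4.60 (adjusted p = 0.00375, 0.000996 and 0.00496). XR_009485 lay at -2.43, -4.86 and -4.83 at day 0 and between -0.27 and 0.69 on the graft arrays, and rose by 4.62, 4.21 and 4.26 (adjusted p = 0.000207, 0.000268 and 0.000435). XR_008266 rose by 4.69, 5.11 and 3.26 (adjusted p = 0.000705, 0.000326 and 0.00546), and its day 28 arrays, between -1.75 and -1.68, were below its day 14 arrays, between -0.02 and 0.32. In all 5 transcripts every graft array lay above every day 0 array.

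XR_007309 and XR_009382 were not well above background on any day 0 array and above it on all 9 graft arrays. Both thus passed the filter only through the graft arrays, on which they were high, and their p-values are no independent support for a rise. XR_007309 was at least 6-fold, 9.49-fold and 9.15-fold higher at days 7, 14 and 28 than at day 0 (limma adjusted p = 0.00136, 0.000378 and 0.000696), with levels from -3.88 to -2.80 on the graft arrays and measured means of -3.80, -3.14 and -3.19 against -7.23 at day 0. XR_009382 was at least 5.93-fold, 7.66-fold and 5.68-fold higher (adjusted p = 1.28e-05, 5.39e-06 and 2.12e-05), with measured means of -3.79, -3.42 and -3.85 against -6.69 at day 0. Such bounds set the mean of the graft day against the dimmest signal that counted as above background on the day 0 arrays, or the probe's own value where that was higher. With normexp all 6 of these calls were lost, at 1.39, 1.01 and 0.88 for XR_007309 (adjusted p = 0.111, 0.256 and 0.354) and 1.41, 0.79 and 0.48 for XR_009382 (adjusted p = 0.0881, 0.37 and 0.664). XR_007052, XR_007471, XR_008168 and XR_009319 had the same pattern of detection, and are named because they complete it.

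A pair of smaller rises had little spread between arrays. XR_005956 lay at -2.17, -1.69 and -2.39 at day 0, 0.37, 0.29 and 0.36 at day 7, 0.73, 0.65 and 0.72 at day 14, and 0.48, 0.53 and 0.48 at day 28, rising by 2.42, 2.79 and 2.58 (SE 0.18, adjusted p = 1.6e-05, 5.89e-06 and 1.72e-05). XR_007981 lay between -3.84 and -3.77 at day 0 and between -2.18 and -1.74 on the graft arrays, rising by 1.77, 2.01 and 2.02 (SE 0.14, adjusted p = 1.93e-05, 7.28e-06 and 1.35e-05). Under the slide block both remained called at days 14 and 28.

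XR_006421 showed the largest fall of all members at day 7. Its level was 1.67, 3.06 and 1.51 at day 0, -5.84, -5.54 and -7.87 at day 7, -4.82, -3.58 and -5.71 at day 14, and -5.86, -5.52 and -6.96 at day 28. The graft arrays lay below the day 0 arrays and were above background on 7 of 9, and the change was -8.50, -6.78 and -8.19 (SE 0.74 each, limma adjusted p = 3.16e-05, 9.01e-05 and 5.98e-05). With the slide block it was -9.88, -8.28 and -9.33, called at days 14 and 28 (adjusted p = 0.121, 0.0301 and 0.011).

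XR_008627 and XR_007238 fell on each graft day and were higher at day 28 than at day 14. XR_008627 lay at 1.26, 2.51 and 2.67 at day 0, -3.53, -3.08 and -4.82 at day 7, -5.10, -5.72 and -4.77 at day 14, and -1.89, -1.90 and -1.93 at day 28. It changed by -5.95, -7.34 and -4.05 against day 0 (SE 0.48, adjusted p = 2.02e-05, 5.37e-06 and 0.000268), and day 28 was 3.29 higher than day 14 (adjusted p = 0.00617). XR_007238 lay between 3.81 and 4.17 at day 0, between -1.66 and 0.73 at day 7, between -1.25 and 0.09 at day 14, and between 1.43 and 2.25 at day 28. It changed by -4.14, -4.43 and -2.12 (adjusted p = 0.000469, 0.000239 and 0.0162), and day 28 was 2.31 higher than day 14 (adjusted p = 0.0486). The day 28 call of XR_007238 was lost without day 28 replicate 1 or 2 (adjusted p up to 0.0596). Its call at day 28 against day 14 was lost without any 1 of 8 arrays, namely all those of days 14 and 28, day 0 replicate 2 and day 7 replicate 1 (adjusted p up to 0.167). Normexp also ended that comparison's call in XR_008627 (1.55, adjusted p = 0.352) and XR_007238 (2.18, adjusted p = 0.0799).

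XR_008557 had the smallest F test p of all members. It lay at 0.36, 0.86 and 0.49 at day 0, -3.13, -2.99 and -3.03 at day 7, -3.17, -3.33 and -3.09 at day 14, and -2.91, -2.94 and -3.12 at day 28, so the 9 graft arrays spanned less than the 3 arrays of day 0. The change was -3.61, -3.76 and -3.56 (SE 0.17 each, limma adjusted p = 1.11e-06, 7.55e-07 and 1.74e-06). Under the slide block it was -3.89, -4.01 and -3.72 and called on each day (adjusted p = 0.0351, 0.00594 and 0.00212).

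Detection was lost on single days for a pair of dim transcripts. XR_007501 was well above background on 0 of 3 arrays at day 14 and on all 3 at day 0, and was at least 19.2-fold lower at day 14 (measured means -6.58 against -2.29, limma adjusted p = 0.000665). It changed by -2.31 at day 7 and -2.44 at day 28 (adjusted p = 0.021 and 0.0162). The day 7 call was lost without day 0 replicate 2 or 3 and the day 28 call without day 0 replicate 3 or day 28 replicate 2 (adjusted p up to 0.0635 and 0.0584). With normexp its changes at days 7, 14 and 28 were -0.43, -1.67 and -1.47, and none passed (adjusted p = 0.63, 0.101 and 0.169). XR_009519 was above background on 0 of 3 arrays at day 7 and on all 3 at days 0 and 14, and was at least 6.48-fold lower at day 7 than at day 0 (measured means -8.19 against -3.98, adjusted p = 0.00352). With the normexp correction its day 7 change was 0.12, the opposite direction. At day 14 it was at least 4.97-fold higher than at day 7 (measured means -4.36 against -8.19, adjusted p = 0.0341), a call that normexp reversed (-0.37) and that was lost without day 7 replicate 1 or 2, any 1 of the day 14 arrays, or day 28 replicate 1 (adjusted p up to 0.141).

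XR_006359 fell at day 28, against each of the other days. It lay at 5.46, 8.52 and 8.63 at day 0, 7.34, 5.81 and 8.13 at day 7, 7.83, 7.81 and 5.96 at day 14, and -0.56, -0.11 and -1.55 at day 28. The 3 day 28 arrays stood apart from all 9 others, and the change was -8.28 ± 0.91 against day 0, -7.94 ± 0.91 against day 14 and -7.84 ± 0.91 against day 7 (limma adjusted p = 0.000191, 0.00235 and 0.00473). It was above background on all 12 arrays, and with the slide block the changes were -8.54, -7.22 and -6.48 (adjusted p = 0.0207, 0.051 and 0.995).

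XR_007815, XR_005869 and XR_009635 fell at day 28, with wide spread on the other days. XR_007815 lay at 2.37, 4.16 and 7.48 at day 0, 0.05, -0.68 and 5.21 at day 7, 0.23, 1.75 and -0.75 at day 14, and -1.55, -1.43 and -1.47 at day 28. XR_005869 lay at 0.41, 1.92 and 6.58 at day 0, -0.87, -1.29 and 4.80 at day 7, -0.75, -0.03 and -1.60 at day 14, and between -2.10 and -1.70 at day 28. Both were highest on the 2 arrays with many non-uniform spots, day 0 replicate 3 and day 7 replicate 3. The change at day 28 was -6.15 for XR_007815 (limma adjusted p = 0.0128) and -4.90 for XR_005869 (adjusted p = 0.0488). For XR_007815, day 28 against day 0 gave -4.74 without day 0 replicate 3 (adjusted p = 0.0385). The same omission gave -3.10 for XR_005869 (adjusted p = 0.145), and the call of XR_005869 was lost without any 1 of 9 arrays (adjusted p up to 0.145), all but day 0 replicate 1 and day 7 replicates 2 and 3, and with normexp (-4.57, adjusted p = 0.0883). XR_009635 lay at 2.80, 3.92 and 1.78 at day 0 and between -1.73 and -1.52 at day 28, and changed by -2.80, -2.85 and -4.48 (adjusted p = 0.014, 0.0112 and 0.00144), its day 7 call being lost without day 0 replicate 2 or day 7 replicate 2 (adjusted p up to 0.0539).

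**Figure D4:**
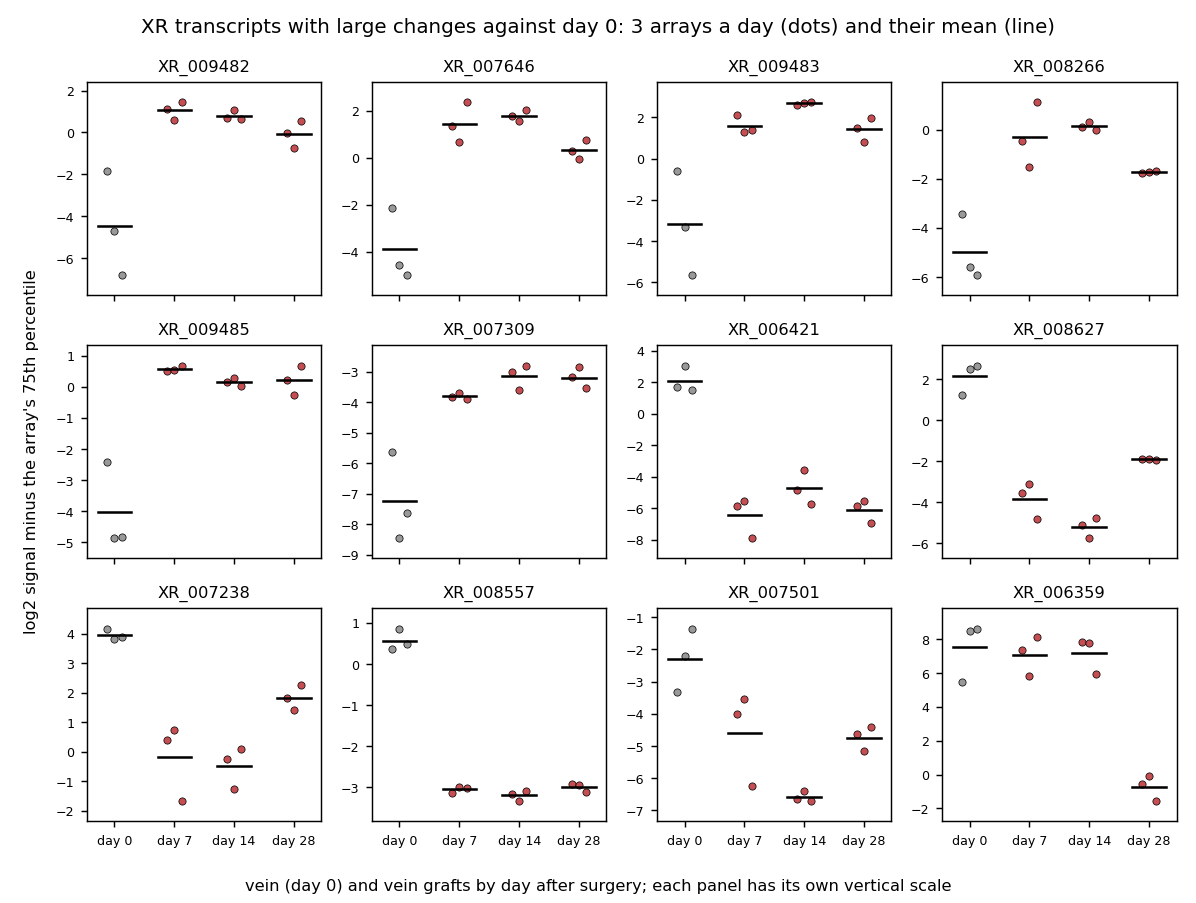
Level of 12 XR transcripts with large changes against day 0 (vertical axis, log2 signal minus the array's 75th percentile, scaled per panel) on each array (dots, grey for day 0, red for grafts) by day (horizontal axis), with the mean of the 3 arrays as a line. XR_007646 rises to means of 1.44, 1.78 and 0.33 against -3.88 at day 0, and XR_006359 stays between 5.46 and 8.63 until day 14 and lies below 0 at day 28.

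XR_008202, XR_007519 and XR_008707 were high at day 14. XR_008202 lay at -3.80, -3.19 and -2.42 at day 0, -3.29, -3.85 and -2.21 at day 7, 2.13, 2.78 and 1.84 at day 14, and -1.85, -3.13 and -0.71 at day 28. XR_007519 lay between 0.25 and 1.03 at day 0, between -0.28 and 1.34 at day 7, at 5.40, 5.97 and 5.23 at day 14, and between 0.66 and 3.21 at day 28. XR_008707 lay between -5.65 and -4.75 at day 0, between -5.72 and -5.10 at day 7, at -0.79, 0.09 and -0.78 at day 14, and between -5.52 and -3.58 at day 28. In each the 3 day 14 arrays lay above the 9 others.

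Day 14 was higher than day 7 by 5.37 in XR_008202, 4.99 in XR_007519 and 4.97 in XR_008707 (limma adjusted p = 0.00159, 0.00181 and 0.000508). Day 28 against day 14 gave -4.15, -3.56 and -4.07 (adjusted p = 0.00715, 0.0116 and 0.00235). The call of XR_007519 in that comparison was lost without day 14 replicate 1 or 2 or day 28 replicate 1 (adjusted p up to 0.0592). Day 14 exceeded day 0 by 5.39, 4.83 and 4.70 (adjusted p = 0.00013, 0.000189 and 5.02e-05). This rise stayed called in all 3 with the slide block, at 7.58, 6.91 and 6.32 (adjusted p = 0.0165, 0.0177 and 0.0121), and the day 14 rise over day 7 stayed called in XR_008707 alone among them (4.67, adjusted p = 0.0424). With normexp XR_008707 lost its calls at day 14 against day 7 (2.02, adjusted p = 0.373) and at day 28 against day 14 (-2.82, adjusted p = 0.0952).

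XR_006581 and XR_006722 were dim transcripts above background on all 3 day 14 arrays and on 0 of the day 28 arrays. Each was above background on 4 arrays in all and so passed the filter only with its day 14 arrays, on which it was highest. XR_006581 was at least 10.2-fold lower at day 28 than at day 14 (measured means -7.94 against -3.76, adjusted p = 0.000701) and XR_006722 at least 11.8-fold lower (measured means -7.75 against -3.54, adjusted p = 0.0135). The call of XR_006722 was lost without day 14 replicate 1 or 3 or day 28 replicate 1 (adjusted p up to 0.074). XR_006581 was also higher at day 14 than at day 7, by 2.34 (adjusted p = 0.00715), which the normexp correction turned to -0.32. It was at least 2.01-fold lower at day 28 than at day 7 (adjusted p = 0.0358), lost without any 1 of the arrays of days 7 and 28 or day 14 replicate 1 (adjusted p up to 0.126). At day 7 it was at least 1.33-fold higher than at day 0 (adjusted p = 0.0192), lost without day 0 replicate 1 or 2 or day 7 replicate 1 or 2 (adjusted p up to 0.0585). No call of either transcript held with normexp, where day 28 against day 14 gave -1.05 for XR_006581 (adjusted p = 0.714) and -1.28 for XR_006722 (adjusted p = 0.627).

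XR_008674, XR_006067, XR_007695 and XR_006202 were high at day 7. The level of XR_008674 was -2.79, -2.07 and -1.17 at day 0, 1.89, 2.09 and 0.91 at day 7, -3.52, -3.14 and -3.55 at day 14, and -2.38, -2.29 and -2.38 at day 28. It rose by 3.64 at day 7 (adjusted p = 0.000123) and changed by -5.03 at day 14 against day 7 (adjusted p = 0.000284) and -3.98 at day 28 against day 7 (adjusted p = 0.00246). Its day 14 arrays were also below day 0, with a change of -1.39 (adjusted p = 0.0197) that was lost without day 0 replicate 3 or day 14 replicate 1 or 3 (adjusted p up to 0.0647) and with normexp (-0.93, adjusted p = 0.0796). The call at day 14 against day 7 held with the slide block (-5.15, adjusted p = 0.0218).

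XR_006067 was above background on all 3 day 7 arrays and on 0 arrays of days 0 and 14. It passed the filter only through its arrays of days 7 and 28, so its p-values are no independent support for being high on those days. It was at least 7.83-fold higher at day 7 than at day 0 (measured means -3.54 against -7.52, adjusted p = 0.000229), and at least 10.3-fold lower at day 14 than at day 7 (measured means -8.38 against -3.54, adjusted p = 0.000745). At day 28 it was again above background on 3 arrays, at least 1.5-fold higher than at day 14 (adjusted p = 0.0422) and changed by -2.79 against day 7 (adjusted p = 0.0227). The first of these was lost without day 7 replicate 1 or any 1 of the arrays of days 14 and 28 (adjusted p up to 0.147), and the second without day 7 replicate 1 or any 1 of the day 28 arrays (adjusted p up to 0.112). With normexp no call of XR_006067 held, the rise at day 7 being 1.55 (adjusted p = 0.0794) and day 14 against day 7 giving -1.70 (adjusted p = 0.346).

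XR_007695 lay at -1.31, -0.90 and -4.44 at day 7, against -6.62, -4.63 and -7.73 at day 0, and rose by 4.11 at day 7 (adjusted p = 0.00703). It was at least 25-fold lower at day 14 (measured means -7.33 against -2.22, adjusted p = 0.0159), lost without day 7 replicate 1 or 2 or day 14 replicate 1 or 3 (adjusted p up to 0.0797), and with normexp (-2.10, adjusted p = 0.206). XR_006202 lay at -1.36, -1.10 and -2.86 at day 7, against -4.53, -3.52 and -3.52 at day 0, and rose by 2.09 at day 7 (adjusted p = 0.00429). It changed by -3.09 at day 14 against day 7 (adjusted p = 0.00394) and -3.05 at day 28 against day 7 (adjusted p = 0.011), the last lost without day 7 replicate 1 or day 28 replicate 1 (adjusted p up to 0.0716). Normexp ended both of those calls of XR_006202, at -1.93 (adjusted p = 0.0954) and -2.08 (adjusted p = 0.0644). Day 7 replicate 3 was the lowest of the day 7 arrays in XR_008674, XR_006067, XR_007695 and XR_006202, and it is the array of that day with 393 non-uniform spots, which were left out. It also had the lowest day 7 medians of Schwann cell (-0.69, against 1.52 and 1.56), B cell, skeletal muscle and endothelial genes. Its medians of macrophage, T and NK cell, adipocyte and erythroid genes were the highest of that day. The cause was not tested.

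XR_007239 rose at day 28. It lay between -0.34 and 0.28 on the 9 arrays of days 0, 7 and 14 and at 2.56, 1.94 and 2.76 at day 28. The change was 2.35 against day 0, 2.54 against day 14 and 2.49 against day 7 (SE 0.24 each, limma adjusted p = 0.00013, 0.00106 and 0.00212). Under the slide block it was 2.79, 2.33 and 2.21 (adjusted p = 0.011, 0.0386 and 0.857). XR_009380 lay between -2.39 and -0.16 at day 28, against -4.45, -2.75 and -3.96 at day 0, a rise of 2.54 (adjusted p = 0.0107), and was 2.93 above day 7 (adjusted p = 0.0447). The second value was lost without any 1 of the day 7 arrays, day 14 replicate 1 or 3, or day 28 replicate 1 or 3 (adjusted p up to 0.188). Both rises were lost with normexp, at 1.62 (adjusted p = 0.164) and 1.12 (adjusted p = 0.281). Within day 14 and within day 28 the arrays of XR_009380 had the order of the skeletal muscle median, 3.02, -0.51 and 3.59 at day 14 and 5.45, 2.74 and 6.36 at day 28, with replicate 2 the lowest of each day. The order was also shared at day 7 but not at day 0, where that median was -1.61, -1.60 and -1.67. A muscle source was not tested.

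XR_009626 was above background on the 3 day 28 arrays and on no other. It thus passed the filter only through the day on which it was high, and its p-values are no independent support for a rise. It was at least 2.98-fold higher at day 28 than at day 0 (measured means -4.93 against -7.99, adjusted p = 0.00115) and at least 3.34-fold higher than at day 7 (measured means -4.93 against -7.63, adjusted p = 0.0236). The second call was lost without day 7 replicate 1 or 3 or day 28 replicate 1 (adjusted p up to 0.127), and with normexp the change against day 7 was -0.67, the opposite direction, and that against day 0 was 0.27 (adjusted p = 0.857).

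**Figure D5:**
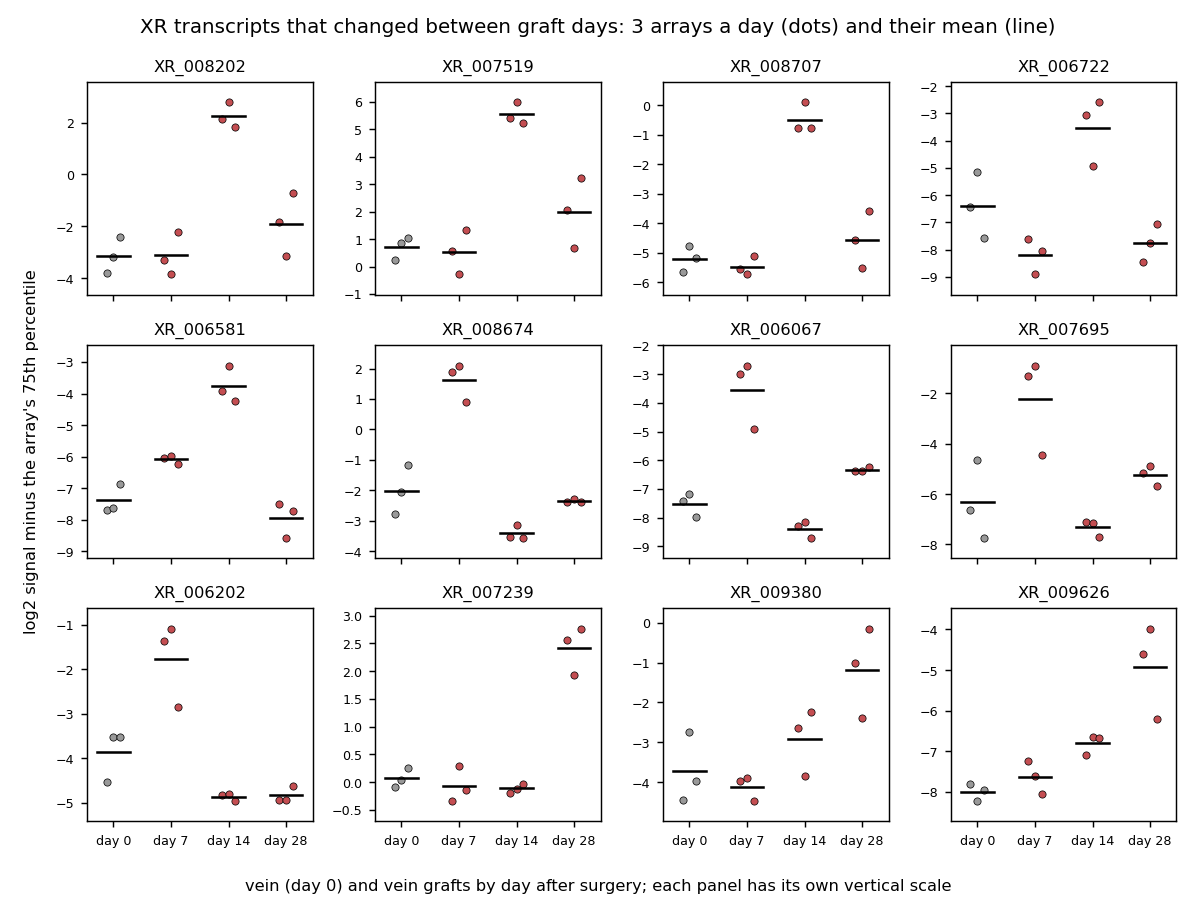
Level of 12 XR transcripts named for changes between graft days (vertical axis, log2 signal minus the array's 75th percentile, scaled per panel) on each array (dots, grey for day 0, red for grafts) by day (horizontal axis), with the mean of the 3 arrays as a line. XR_008202, XR_007519 and XR_008707 are highest on the 3 day 14 arrays, XR_008674 on the 3 day 7 arrays and XR_007239 on the 3 day 28 arrays.

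Of the 115 calls of named transcripts, 87 held when any 1 array was left out and 28 were lost without at least 1 array. With slide as a fixed block 33 of the 115 stayed called and 82 were lost. Among transcripts with a symbol those kept were Tnxa-ps1 against day 0 on each graft day and Rpph1 at day 28, and every call of Atp2a2, Oprm1, Chchd4l1, Abhd11-as1, Ngrn, Alg3, Terc, RT1-T24-2 and CB741658 was lost. Of the 5 transcripts with the large shared rises, XR_007646 stayed called at day 14 (adjusted p = 0.0498) and XR_009485 at day 28 (adjusted p = 0.0324).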

How the data were processed

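RNA of 12 vein samples was measured on single-colour arrays. Per the labels' protocols total RNA was depleted of ribosomal RNA before Cy3 labelling, primed with oligo(dT) and random primers. The authors deposited scanner tables of spot intensity, made with Agilent Feature Extraction 11.0.1.1 and background-corrected by that software, per the file headers. They also deposited a table of log2 values for 24529 features, of which 1724 are members, with column medians of 7.149 to 7.153 and a correlation with the scanner values of 0.9935 to 0.9986. Its scale and direction follow from that comparison, and its normalization is not given in the sources used here.

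Control and outlier spots were left out, log2 intensity minus each array's 75th percentile was averaged per probe, and probes well above background (at least 50% of their spots) on at least 3 arrays were tested. A bound was used where a day had 0 arrays above background. limma 3.58.1 in R 4.3.3 fitted all 12 arrays (8 residual and 2.32 prior degrees of freedom), with Benjamini-Hochberg adjustment over 21063 probes and a call at 0.05. Of the member values 11 in 10 transcripts were missing, in none of the transcripts named. The method was also run on simulated data with independent noise, equal spread on all days and no slide effect. That run says nothing of slide effects or of the unequal spread between days seen here. Python 3.11.15, NumPy 2.4.6, pandas 2.3.3 and Matplotlib 3.10.9 did the rest.

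Slides were told apart by scan time. Replicates are numbered as names and pair nothing across days. Symbols came from RefSeq accessions matched to the GRCr8 gene table, which was used for names and neighbours. Probe sequences were not used here. Promoters are RefSeq's, GRCr8. Transcripts named were all with a symbol, the 5 largest calls in each direction for each graft day against day 0 and the 3 largest for each pair of graft days (above background on all arrays of the higher day), and the 5 smallest F test p among those called the same way on all graft days. The members, rule and lists were chosen with earlier results of these data known. Of the fixed marker lists, endothelial genes had 3, 3 and 2 of 5 lower at days 7, 14 and 28 (and 0, 0 and 1 higher), adipocyte genes 4, 5 and 4 of 6 lower, T and NK cell genes 6, 7 and 5 of 8 higher, B cell genes 2, 0 and 2 of 2 higher, erythroid genes 3, 2 and 3 of 4 higher, fibroblast genes 2, 2 and 1 of 3 higher (and 0, 1 and 0 lower), and Schwann cell genes 0, 2 and 0 of 6 lower. Alternatives were quantile normalization, other filters, slide blocks, array weights, fewer arrays, outlier spots kept, the deposited table, and normexp (offset 50), run on the median spot signal because the files hold no mean signal, a choice made after seeing the data.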

Additional observations from a re-analysis of the deposited data

Results flagged for a closer look

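Because the graft days share the day 0 arrays, a difference between graft days is also a difference between their changes against day 0, and 30 such differences in 17 named transcripts passed the test (limma, adjusted over 21063 probes). Transcripts named as the largest calls between graft days passed by that choice. The number is thus no measure of how common such differences were. Values are log2 differences, or a bound in fold where a day had 0 arrays above background. Day 14 exceeded day 7 in XR_008202 (5.37, adjusted p = 0.00159), XR_007519 (4.99, adjusted p = 0.00181), XR_008707 (4.97, adjusted p = 0.000508) and XR_006581 (2.34, adjusted p = 0.00715), and by at least 8.8-fold in XR_006722 (adjusted p = 0.00751) and 4.97-fold in XR_009519 (adjusted p = 0.0341). Day 14 was lower than day 7 in XR_008674 (-5.03, adjusted p = 0.000284) and XR_006202 (-3.09, adjusted p = 0.00394), and at least 25-fold lower in XR_007695 (adjusted p = 0.0159) and 10.3-fold lower in XR_006067 (adjusted p = 0.000745).

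Day 28 exceeded day 14 in XR_008627 (3.29, adjusted p = 0.00617), XR_007239 (2.54, adjusted p = 0.00106), XR_007238 (2.31, adjusted p = 0.0486) and Tnxa-ps1 (1.72, adjusted p = 0.0165), and by at least 1.5-fold in XR_006067 (adjusted p = 0.0422). Day 28 was lower than day 14 in XR_006359 (-7.94, adjusted p = 0.00235), XR_008202 (-4.15, adjusted p = 0.00715), XR_008707 (-4.07, adjusted p = 0.00235) and XR_007519 (-3.56, adjusted p = 0.0116), and at least 11.8-fold lower in XR_006722 (adjusted p = 0.0135) and 10.2-fold lower in XR_006581 (adjusted p = 0.000701).

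Day 28 exceeded day 7 in XR_009380 (2.93, adjusted p = 0.0447), XR_007239 (2.49, adjusted p = 0.00212) and Tnxa-ps1 (1.77, adjusted p = 0.0245), and by at least 3.34-fold in XR_009626 (adjusted p = 0.0236). Day 28 was lower than day 7 in XR_006359 (-7.84, adjusted p = 0.00473), XR_008674 (-3.98, adjusted p = 0.00246), XR_006202 (-3.05, adjusted p = 0.011) and XR_006067 (-2.79, adjusted p = 0.0227), and at least 2.01-fold lower in XR_006581 (adjusted p = 0.0358). XR_009626 passed the filter only through its day 28 arrays, XR_006067 only through its arrays of days 7 and 28, and XR_006722 and XR_006581 only with their day 14 arrays. Their p-values are thus no independent support for being high on those days. No group had more than 3 arrays, so single arrays were not tested as outliers.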

How the results depend on the processing

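Counts are members called at days 7, 14 and 28 against day 0, then at day 14 against 7, 28 against 14 and 28 against 7, then by the F test. They were 350, 425, 355, 42, 41, 24 and 440 as reported, 158, 171, 94, 5, 9, 8 and 142 with normexp, and 3, 55, 57, 2, 11, 0 and 45 with slide as a fixed block (for the 0, limma with 27 at an unadjusted p under 0.05). Of all probes, normexp called 14.7%, 16.8%, 12.3%, 0.261%, 0.641%, 0.437% and 15.5% in that order. The fixed block called 0.261%, 4.91%, 6.47%, 0.133%, 0.589%, 0% and 3.85% of all probes. With only the arrays compared, 134, 276 and 209 were called against day 0 and 369 at day 28 against 14 (13.7%, 27.4%, 22% and 30.2% of all probes). Array weights gave 617, 1137 and 910 between graft days (50.6%, 78% and 63.8% of all probes). Leaving out both arrays with many non-uniform spots gave 122, 289 and 53 between graft days and 713 by the F test (11.5%, 22.8%, 4.43% and 55.5% of all probes). Probes above background on all 12 arrays gave 20 at day 14 against 7 (2.22% of all such probes). A random slide block gave 6 at day 28 against 7 (0.546% of all probes). Leaving out 1 array in turn gave 252 to 396, 285 to 500, 198 to 418, 14 to 78, 10 to 113, 4 to 38 and 309 to 523. The called share of all probes then ranged over 23.8% to 37.4%, 27.2% to 42.2%, 21.7% to 39.9%, 1.07% to 6%, 0.774% to 10.8%, 0.161% to 3.05% and 30.1% to 44.8%. Moves of over 1.5 times came without day 28 replicate 1 or 2 (day 28 against day 0), and between graft days without any array of days 7, 14 or 28 or day 0 replicates 1 and 3, in at least 1 comparison. With quantile normalization, no filter, outlier spots kept or the deposited table, every count was within 1.5 times the reported one. Of 115 calls of named transcripts, the fixed block kept 33, and normexp kept 66 and reversed 5: Abhd11-as1 at day 7 against day 0 (0.53), XR_009519 at day 7 against day 0 (0.12) and day 14 against day 7 (-0.37), XR_006581 at day 14 against day 7 (-0.32), and XR_009626 at day 28 against day 7 (-0.67). normexp moved the median of all probes at day 7 against day 0 to 0.44. The cause of these moves was not tested. No paired analysis was possible because the labels give every array replicate number 1. Of 1728 members 264 were too dim to test, and 3 arrays a day limit the precision.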

Other observations

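For some of the named transcripts, picked after the values were seen, coding genes with the most similar course over the 12 arrays are given, by the root mean square difference of the 2 centred log2 profiles, a measure chosen at the same time. All genes share the same 12 arrays, so these are descriptions with no test and say nothing of shared function. XR_007646, one of the 5 largest rises, was nearest to Ncf1, an NADPH oxidase subunit of phagocytes (0.27), Cd37 (0.27), Clec4a3 (0.27) and Cd53 (0.29), leukocyte surface proteins, against a root mean square size of its own of 2.38. XR_008266 was nearest to the Fc receptor gene Fcgr1a (0.32) and Tlr7 (0.32), and XR_009482 to Lst1 (0.43) and Tlr2 (0.50). XR_009485 was nearest to Rab15 (0.37) and the chemokine receptor gene Cxcr4 (0.37).

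XR_006421, the largest fall at day 7, was nearest to Mup4l3 (0.52) and Mup4l1 (0.58), of the major urinary protein family, and Obp3 (0.65), against its own size of 3.55. Tnxa-ps1 was nearest to the neuropeptide Y receptor gene Npy1r (0.29), Bcam (0.36), Hspb6 (0.38) and Synm (0.41), and XR_007238 to Prkaa2 (0.42) and Bves (0.47). Among transcripts high at day 14, XR_008202 lay 0.29 from XR_007519 and 0.45 from XR_008707, XR_007519 lay 0.37 from XR_008707, and XR_007519 was nearest to Zzz3 (0.22) and Vangl1 (0.25). Receptor genes of smell and pheromone sensing were near others, Or8h7 near XR_008202 (0.24) and Vom1r37 near XR_009635 (0.24).

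Of the transcripts high at day 7, XR_006067 was nearest to the synaptic adhesion gene Slitrk3 (0.30), the presynaptic gene Cplx1 (0.40) and Gad1, an enzyme of GABA synthesis (0.47), XR_008674 to Tmem266 (0.48) and Caln1 (0.63), and XR_007695 to Cplx1 (0.61). XR_009380 was nearest to Cox8b (0.44) and Itgb6 (0.50), with Myod1, a regulator of muscle cell identity, at 0.65. XR_006722, highest at day 14, was nearest to the fibrinogen chain gene Fga (0.68) and Hpd, of tyrosine breakdown (0.70). XR_006359 had no close match, its nearest being Foxe1 at 1.54 against its own size of 3.62.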
